A study of Homo sapiens with 2 samples.

Results

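The genes described here encode the subunits of the proteasome and the proteins that assemble, open or inhibit it. They were taken as every gene whose current symbol is PSMA, PSMB, PSMC, PSMD, PSME, PSMF or PSMG followed by a number and nothing else, with a value for a gene being the mean over its probes. The RefSeq gene table held 48 such genes, of which 39 had a named probe on the array and 37 had a value. All 37 were measured on both arrays, out of 11057 named genes with a value on either. PSMB8 and PSMD5 had a probe but no value. For PSMA6, PSMB11, PSMC1, PSMC5, PSMC6, PSMD6, PSME3, PSMG3 and PSMG4 the annotation used here named no probe, so they are not analysed here.

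The samples were cultures of 293T, an established human embryonic kidney cell line, given 10 µM Y27632 for 3 h or for 6 h and compared with untreated 293T cells labelled as time 0. Y27632 inhibits ROCK1 and ROCK2, kinases that drive actomyosin contraction. The titles of both arrays give only the cell line, the word control and a time. Of the channels, the Cy3 one is labelled with the inhibitor. Each time was measured on 1 two-colour array, with treated RNA in Cy3 and untreated RNA in Cy5 and no dye swap. Effects of the inhibitor, the dye, the vehicle, the handling and the time in culture cannot be told apart, and the time of treatment cannot be told apart from the array. Whether one preparation of untreated RNA served both arrays is not stated. The deposited values were log ratios of the channels. Which channel was the numerator is not stated. A positive value stands for more RNA in treated cells only if that channel was Cy3, and for less if it was Cy5. Signs below are therefore given as deposited and are not called rises or falls. Base 2 was assumed for the logarithm. With no replicate there is no test, standard error or p-value. The array gives ratios and no levels, so the labelled cell type could not be checked against the level of its markers, and lower RNA per cell cannot be told apart from fewer cells of a kind.

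The proteasome is the protease that degrades ubiquitin-tagged proteins in the cytosol and nucleus. Its barrel, the 20S core, is built from outer alpha rings that gate the entrance and inner beta rings that carry the active sites. The 19S regulatory particle caps the barrel, and consists of a base with ATPases that unfold and feed in the substrate and a lid that removes ubiquitin. Dedicated chaperones assemble both parts, and separate activators can replace the 19S cap. Subunits of the complex are needed in fixed proportions, and in mammals their genes are induced together by NFE2L1 when proteasome activity is short.

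No proteasome gene was far from 0 on either array, and more of them were positive than negative, with a higher median at 3 h. None of the 37 was 2-fold or more (1 log2 unit) from 0 at 3 h, where 1.61% of all named genes were, and none at 6 h, where 1.43% were. With shares this small, finding none among 37 genes does not set the proteasome genes apart. At 1.5-fold, PSMA3 alone passed at 3 h, beside 9.36% of all named genes, and no member passed at 6 h, beside 9.86%. The median log2 ratio at 3 h was 0.19 over the 37 proteasome genes and 0.02 over all 10810 named genes. At 6 h the medians were 0.09 for proteasome genes and 0.02 for all 10716 named genes. Values above 0 were found for 28 of 37 proteasome genes at 3 h, against 51.3% of all named genes, and for 23 of 37 at 6 h, against 51.5%. The typical distance from 0, the median of the absolute log2 ratio, was 0.22 for proteasome genes and 0.21 for all named genes at 3 h, and 0.13 for proteasome genes and 0.22 for all named genes at 6 h. The typical member was therefore no nearer to 0 than other genes at 3 h, and nearer at 6 h.

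The proteasome genes also lay nearer to each other than named genes in general. Their SD across genes was 0.19 at 3 h and 0.18 at 6 h, against 0.36 for all named genes at each time. In the related lists described below, the SD ran from 0.11 to 0.29 at 3 h and from 0.07 to 0.33 at 6 h. The autophagy list had 0.18 and 0.17, so a spread this narrow was not particular to the proteasome. The middle values of the proteasome genes ran from 0.03 to 0.27 at 3 h (lower to upper quartile), against −0.19 to 0.23 for all named genes. At 6 h the quartiles were −0.03 and 0.20 for proteasome genes and −0.20 and 0.24 for all named genes. The gap to all genes was thus mostly on the negative side, where 2 proteasome genes lay at −0.20 or less on both arrays, beside 14.2% of all genes measured on both. At 0.20 or more on both arrays lay 10 proteasome genes, or 27% of them, beside 20.1% of all genes. A further 12 proteasome genes lay within 0.10 of 0 on both arrays, which is 32.4% of them and 11.2% of all genes. Spot brightness, which sets the noise of a ratio, was not used here, and its part in this narrow spread was not tested.

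**Figure D1:**
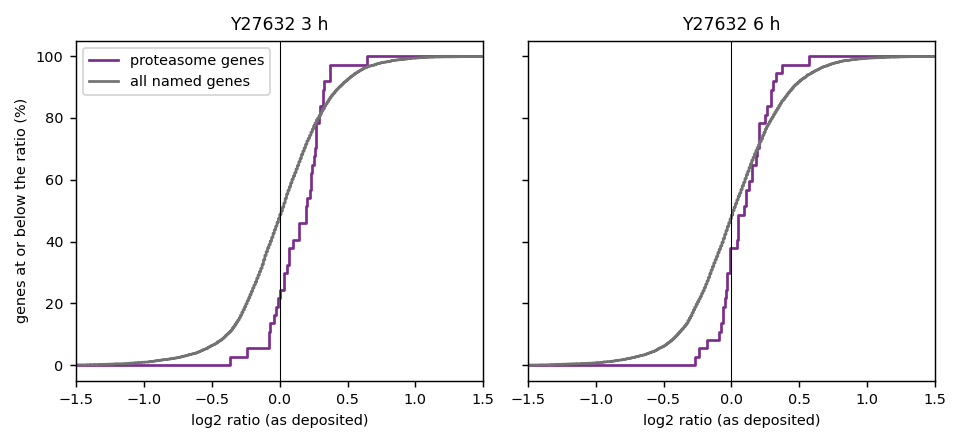
Share of genes (vertical axis, %) at or below each log2 ratio as deposited (horizontal axis) for the 37 proteasome genes and for all named genes, after 3 h (left) and 6 h (right) of Y27632. The proteasome curve is steeper on both arrays and crosses 0 at a lower share of genes, with medians of 0.19 at 3 h and 0.09 at 6 h against 0.02 for all named genes.

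The error of a single proteasome value is not known from these arrays. Over 572 genes with several probes the SD between probes of a gene was 0.31 at 3 h and 0.33 at 6 h, which is larger than the SD of 0.19 and 0.18 among the proteasome genes themselves. Whether that figure, from genes with several probes, holds for members with 1 probe was not tested. Since 36 of the 37 rested on 1 probe and each time on 1 array, neighbours in the order of the members cannot be called different. The widest step between neighbours in the order was 0.27 at 3 h and 0.20 at 6 h, on both arrays that between PSMA3 and the next gene. PSMB10, the only member with several probes, had probes that disagreed, with −0.03, 0.44 and 0.40 at 3 h and −0.07, 0.44 and −0.40 at 6 h.

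**Figure D2:**
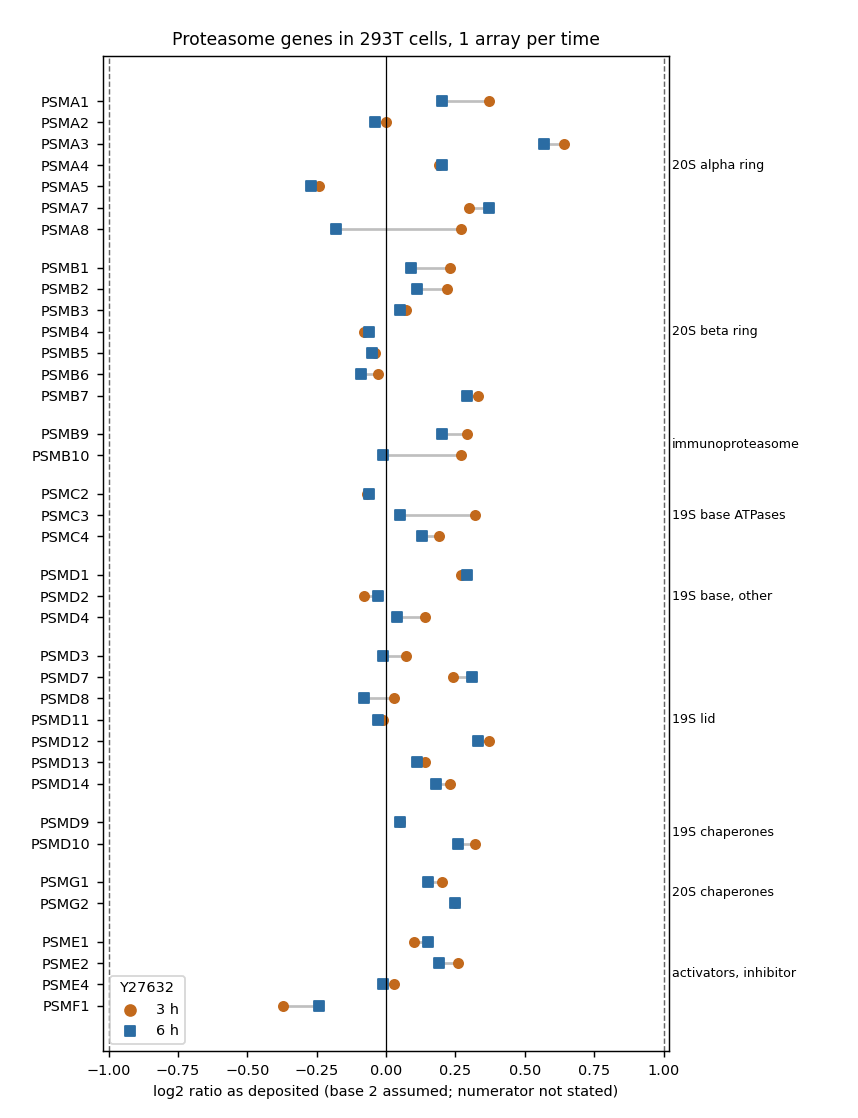
Log2 ratio as deposited (horizontal axis) of each proteasome gene, grouped by role, at 3 h (circles) and 6 h (squares) of Y27632 on 1 array each; a grey line joins both values of a gene and dashed lines mark a 2-fold difference. All points lie between −0.37 and 0.64, and the longest line is that of PSMA8.

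Promoter sequences are shown for the genes at both ends of this range, as the DNA next to the most different values. PSMA3 and PSMD12 had the highest smaller value of both arrays, and PSMA5 and PSMF1 were the only members at −0.20 or less on both. PSMB9 is added because its start lies head to head with that of another antigen processing gene. Each run is the 250 bases before the RefSeq start in GRCh38.p14, 5′ to 3′ on the strand of the gene: PSMA3 (chr14:58244593-58244842, plus strand), PSMD12 (chr17:67366578-67366827, minus strand), PSMA5 (chr1:109426449-109426698, minus strand), PSMF1 (chr20:1113013-1113262, plus strand) and PSMB9 (chr6:32853942-32854191, plus strand). Capitals mark matches on either strand to CCAAT, the box bound by NF-Y, and to TGACNNNGC, the core of the antioxidant response element bound by NFE2L1 and NFE2L2 with small MAF proteins.
PSMA3: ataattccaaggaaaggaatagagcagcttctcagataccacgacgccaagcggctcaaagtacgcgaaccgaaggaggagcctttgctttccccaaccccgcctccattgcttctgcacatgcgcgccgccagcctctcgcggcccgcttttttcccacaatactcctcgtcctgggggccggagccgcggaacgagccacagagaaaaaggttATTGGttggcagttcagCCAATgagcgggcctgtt
PSMD12: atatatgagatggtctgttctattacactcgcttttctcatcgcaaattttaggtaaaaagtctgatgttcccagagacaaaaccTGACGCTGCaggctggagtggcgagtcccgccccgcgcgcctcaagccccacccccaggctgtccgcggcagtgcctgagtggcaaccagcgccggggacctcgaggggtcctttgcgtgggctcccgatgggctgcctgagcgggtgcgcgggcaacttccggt
PSMA5: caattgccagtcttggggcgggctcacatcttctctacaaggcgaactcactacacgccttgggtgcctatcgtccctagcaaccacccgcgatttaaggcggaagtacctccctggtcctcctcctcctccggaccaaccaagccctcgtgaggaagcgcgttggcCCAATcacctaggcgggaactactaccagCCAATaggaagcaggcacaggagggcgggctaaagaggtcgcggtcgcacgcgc
PSMF1: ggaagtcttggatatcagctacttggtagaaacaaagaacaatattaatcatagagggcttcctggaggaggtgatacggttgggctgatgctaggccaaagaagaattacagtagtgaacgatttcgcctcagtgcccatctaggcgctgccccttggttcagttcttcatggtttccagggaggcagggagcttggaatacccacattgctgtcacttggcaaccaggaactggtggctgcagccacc
PSMB9: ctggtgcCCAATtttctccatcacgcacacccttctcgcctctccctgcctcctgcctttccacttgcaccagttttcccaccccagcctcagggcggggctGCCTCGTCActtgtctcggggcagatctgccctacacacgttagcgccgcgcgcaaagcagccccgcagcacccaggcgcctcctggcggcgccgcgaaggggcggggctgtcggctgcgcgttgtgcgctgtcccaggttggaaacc
The CCAAT box was thus found at both ends of the range. PSMA3 carried 2 matches, at 35 and 18 bases before the start, and PSMA5 also carried 2, at 83 and 54 bases before it. In PSMD12 the capitals are 1 response element core, 165 bases before the start, and in PSMF1 neither motif was found in this window. PSMB9 carried 1 of each, the response element core 148 bases and the CCAAT box 243 bases before the start.

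A promoter window of 300 bases, 250 before and 50 after the start, was held for 32 of the 37 genes. TGACNNNGC, searched on both strands, was in 12 of the 32 (37.5%), against 13.6% of all 27305 promoters and 14.8% of the 8872 promoters of named genes with a value. CCAAT was in 15 of the 32 (46.9%), against 35.7% of all promoters and 36.6% of those of measured genes. GAANNTTC, a pair of heat shock element units, was in 0 of 32, against 6.87% of all promoters and 4.96% of those of measured genes. The ratios overlapped whether or not the window held a match. Genes with TGACNNNGC ran from 0.03 to 0.37 at 3 h with a median of 0.20, and those without from −0.37 to 0.64 with a median of 0.17. At 6 h the medians were 0.15 with the motif and −0.02 without it, and the genes with it, from −0.01 to 0.33, lay inside the range of those without, from −0.27 to 0.57. For CCAAT the medians were 0.20 with and 0.19 without at 3 h, and 0.05 with and 0.11 without at 6 h. A match is a run of letters and not a site shown to be bound.

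The alpha ring, whose 7 different subunits form the gate of the core, held the highest and one of the lowest members although its subunits are used in equal numbers. PSMA3 had log2 ratios of 0.64 at 3 h and 0.57 at 6 h, sizes of 1.56-fold and 1.48-fold. Of all named genes, 3.67% lay at or above this value at 3 h and 6.04% at 6 h, so PSMA3 was high within the complex and not extreme on the array. PSMA5 had −0.24 and −0.27. Between these, PSMA7 had 0.30 at 3 h and 0.37 at 6 h and PSMA1 had 0.37 and 0.20. PSMA4, at 0.19 and 0.20, and PSMA2, at 0.00 and −0.04, completed the ring's measured ubiquitous subunits. PSMA8, a testis form that replaces PSMA7 in germ cells, had 0.27 at 3 h and −0.18 at 6 h. This was the widest difference between times among the 37 genes, at −0.45. PSMA7 and PSMA8 are close paralogs, and whether their probes tell them apart was not tested. Spot brightness was not used, so whether the single PSMA8 probe lay near background was not tested either.

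The beta ring carries the proteolytic sites in 3 of its subunits, and these did not share a sign. PSMB7, the trypsin-like subunit, had 0.33 at 3 h and 0.29 at 6 h. PSMB5, the chymotrypsin-like subunit and the main target of the drug bortezomib, had −0.04 and −0.05. PSMB6, the caspase-like subunit, had −0.03 and −0.09. Of the structural subunits, PSMB1 had 0.23 and 0.09, PSMB2 had 0.22 and 0.11, and PSMB3 had 0.07 and 0.05. PSMB4 had −0.08 and −0.06, the lowest value of the ring at 3 h. All 7 beta genes were within 0.33 log2 units of 0 on both arrays. At each time 4 were positive, beside 51.3% of all named genes at 3 h and 51.5% at 6 h.

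Cells exposed to interferon gamma swap the catalytic subunits for PSMB8, PSMB9 and PSMB10, which form the immunoproteasome. PSMB9, which takes the place of PSMB6, had 0.29 at 3 h and 0.20 at 6 h, beside −0.03 and −0.09 for PSMB6. PSMB10, which takes the place of PSMB7, averaged 0.27 at 3 h and −0.01 at 6 h, beside 0.33 and 0.29 for PSMB7. Its 6 h value was the mean of probes that lay on opposite sides of 0, so no sign can be given to it, and PSMB8 had no value. PSMB9 lies head to head with TAP1, a subunit of the peptide transporter of antigen presentation, with 488 bases between their RefSeq starts. TAP1 had −0.27 and −0.32, on the other side of 0 from PSMB9 on both arrays. Of the 6 measured genes in the antigen processing list, TAP1 included, 1 was positive at 3 h and 4 at 6 h, with medians of −0.07 and 0.04. The share of positive values over all named genes was 51.3% at 3 h and 51.5% at 6 h. TAP2, its partner in that transporter, had 0.01 and −0.41, and IRF1, an interferon response factor, had −0.02 and 0.29.

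Of the 6 ATPases of the 19S base, 3 had values. PSMC3 had 0.32 at 3 h against 0.05 at 6 h, so that 6 h minus 3 h was −0.27. PSMC4 had 0.19 and 0.13, and PSMC2 had −0.07 and −0.06. The ring of ATPases thus held both signs at each time, all within 0.32 of 0. Of the large scaffold subunits of the base, PSMD1 had 0.27 and 0.29 and PSMD2 had −0.08 and −0.03. PSMD4, the ubiquitin receptor that hands substrates to the ATPases, had 0.14 and 0.04.

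The lid held 7 measured subunits, of which 6 were positive at 3 h and 4 at 6 h. Of all named genes, 51.3% were positive at 3 h and 51.5% at 6 h. PSMD14, the deubiquitinase that cuts the ubiquitin chain off the substrate, had 0.23 at 3 h and 0.18 at 6 h, and its dimer partner PSMD7 had 0.24 and 0.31. The other lid subunits are scaffold proteins. PSMD12 led them with 0.37 and 0.33, and PSMD13 had 0.14 and 0.11. PSMD3, at 0.07 and −0.01, PSMD8, at 0.03 and −0.08, and PSMD11, at −0.01 and −0.03, lay within 0.08 of 0. The median of the lid was 0.14 at 3 h and 0.11 at 6 h.

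All 4 assembly chaperones with a value were positive on both arrays. PSMG1 and PSMG2, which pair to build the alpha ring, had ratios at 3 h of 0.20 for PSMG1 and 0.25 for PSMG2, and at 6 h of 0.15 for PSMG1 and 0.25 for PSMG2. PSMD10, also known as gankyrin, and PSMD9 bind ATPases before they join the base. PSMD10 had 0.32 and 0.26, and PSMD9 had 0.05 at both times. Over all named genes, 40.4% were positive on both arrays. POMP, which matures the beta ring and does not carry a PSM symbol, had 0.47 and 0.33.

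Of the 4 measured regulators of the core, 3 were positive at 3 h and 2 at 6 h. Of all named genes, 51.3% were positive at 3 h and 51.5% at 6 h. PSME1 and PSME2, which form the interferon-inducible activator of the core, were both on the positive side: PSME1 had 0.10 and 0.15, and PSME2 had 0.26 and 0.19. PSME4, a large nuclear activator, had 0.03 and −0.01. PSMF1, first described as an inhibitor of the core in the test tube, had the lowest value of all members at 3 h, −0.37, and had −0.24 at 6 h. At 3 h, 10.8% of all named genes lay at or below PSMF1, and at 6 h 21.4% did, so PSMF1 was low within the complex and not extreme on the array.

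Values of the same gene at 3 h and 6 h lay close together. The log2 ratios at both times differed by at most 0.10 for 29 of 37 proteasome genes (78.4%), beside 41.7% of 10469 named genes measured on both arrays. They differed by more than 0.20 for PSMA8, PSMB10 and PSMC3, or 8.11% of the members, beside 32.4% of all genes. No member differed by 1 log2 unit or more between times, where 1.2% of all genes did, a share too small to set the members apart. The signs were the same for 31 members (83.8%), beside 76.7% of all genes; 23 were positive on both arrays, beside 40.4%, and 8 negative on both, beside 36.3%. Signs were opposite for 5 members (13.5%), beside 20.8% of all genes, and PSMA2 was at 0 at 3 h. The difference of 6 h minus 3 h had a median of −0.04 over proteasome genes and −0.01 over all genes, and was negative for 26 of 37 members, beside 51.2% of all genes. Its SD was 0.11 over proteasome genes and 0.29 over all genes. In the related lists this SD ran from 0.07 for eIF3 to 0.27 for antigen processing, with 0.10 for autophagy. Close values at both times were therefore not particular to the proteasome. An RNA of untreated cells on both arrays, if it was the same one, would draw both values of a gene together, and this was not tested.

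**Figure D3:**
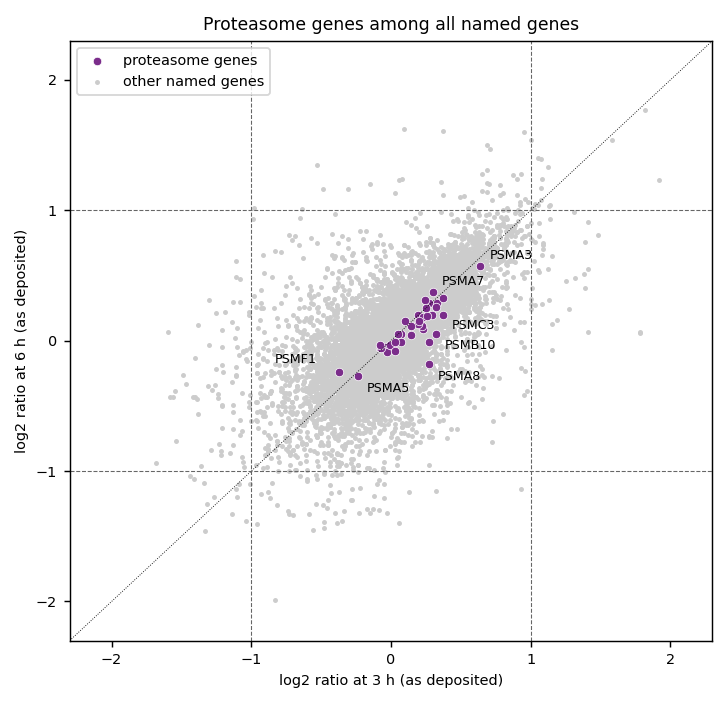
Log2 ratios as deposited at 3 h (horizontal axis) and 6 h (vertical axis) of Y27632 for the 37 proteasome genes and the other named genes measured on both arrays; the dotted line marks equal values and dashed lines 2-fold differences. The proteasome genes form a tight band along the dotted line, from PSMF1 and PSMA5 to PSMA3, with PSMA8, PSMB10 and PSMC3 below it.

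Lists of related machinery give the setting of these values. Their counts of positive genes stand beside 51.3% of all named genes at 3 h and 51.5% at 6 h. Proteasome partners without a PSM symbol had a median of 0.14 at 3 h, with 9 of 12 positive, and 0.16 at 6 h, with 7 of 11 positive. ZFAND5, a ubiquitin-binding activator of the proteasome, had 0.55 and 0.45, whereas UBE3C, a ubiquitin ligase on the proteasome, had −0.24 and −0.44. Genes of p97, the segregase that extracts substrates for the proteasome, and of its cofactors had medians of 0.23 and 0.30, with 6 of 8 positive at 3 h and 8 of 8 at 6 h. The gene of p97 itself, VCP, named here after its value was seen, lay near 0 with −0.02 and 0.03. Among the cofactors, NGLY1, the glycanase that activates NFE2L1, had 0.62 and 0.67, FAF1 had 0.59 and 0.55, and UBXN4 had 0.27 and 0.43. The ubiquitin-type genes and E1 enzymes with a value lay near 0, with medians of 0.00 and 0.03 and 2 of 4 positive at each time. Among them UBA1, the main E1 enzyme, had −0.04 and 0.09, UBA3 had 0.19 and 0.08, and NAE1 had 0.04 and −0.04.

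The transcription factors that act on proteasome genes, and their regulators, were mixed. Of 11 genes, 5 were positive at 3 h, beside 51.3% of all named genes, and 7 at 6 h, beside 51.5%. Their medians were −0.05 and 0.10. HSF1, the heat shock factor, had 0.60 and 0.50, MAFF, a small MAF partner, had −0.21 and −0.54, and NFYB, a subunit of NF-Y, had 0.27 and 0.39. NFE2L1 itself, named here after its value was seen, had −0.05 and 0.06. The COP9 signalosome and eIF3, complexes built on subunits related to those of the lid, had medians of 0.25 and 0.25 over 5 genes and 0.10 and 0.02 over 11 genes, beside 0.14 and 0.11 for the lid. GPS1 and COPS3 of the signalosome were alike, with 0.31 and 0.33 for GPS1 and 0.34 and 0.28 for COPS3, whereas COPS7B had −0.34 and −0.16. In eIF3, EIF3A had 0.63 and 0.57, EIF3B −0.27 and −0.28 and EIF3H 0.21 and 0.21. Autophagy genes, of the other main route of protein breakdown, had medians of 0.28 and 0.18, with 7 and 8 of 10 positive, among them BECN1 at 0.41 and 0.29, MAP1LC3B at 0.33 and 0.33 and ATG3 at 0.28 and 0.31. None of the related genes reached 1 log2 unit from 0, beside 1.61% of all named genes at 3 h and 1.43% at 6 h. Shares this small do not set the related genes apart. The positive medians of the lists of p97 with its cofactors, of autophagy and of the signalosome lay above those of the proteasome genes at both times.

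**Figure D4:**
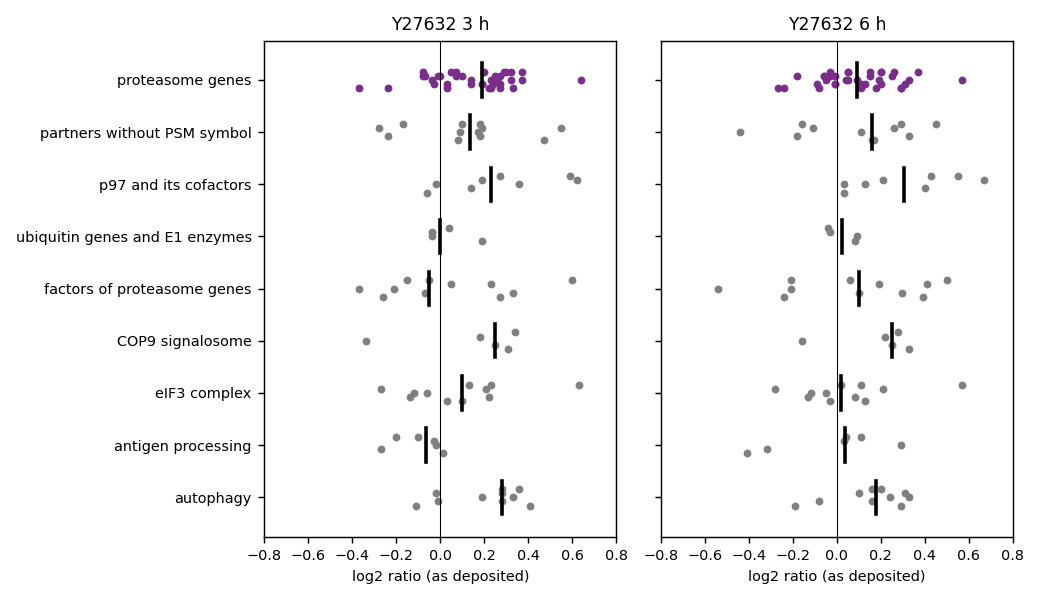
Log2 ratios as deposited (horizontal axis) at 3 h (left) and 6 h (right) of Y27632 for the 37 proteasome genes (top row) and the related gene lists, with a point per gene and a black bar at the median. The proteasome genes, with medians of 0.19 and 0.09, lie within the spread of the related lists, whose medians run from −0.07 to 0.28 at 3 h and from 0.02 to 0.30 at 6 h.

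Other divergent pairs let neighbouring starts be compared, as for PSMB9 and TAP1. A protein-coding gene started head to head within 1000 bases of 7 members, and 5 of these neighbours had a value on at least 1 array. PSMD10 and ATG4A, an autophagy protease gene, with starts 236 bases apart, gave 0.32 and 0.26 for PSMD10 and 0.32 and 0.45 for ATG4A. PSMA2 had 0.00 and −0.04 where MRPL32, a mitochondrial ribosomal protein gene 202 bases away, had 0.26 and 0.31. PSME4 had 0.03 and −0.01 where ACYP2, an acylphosphatase gene 120 bases away, had 0.68 and 0.60. PSMD9 had 0.05 at 6 h where HPD, an enzyme gene of tyrosine breakdown 179 bases away, had −0.22. How often any pair of genes differs as much was not tested.

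Markers of other cell types, which 293T cultures should lack, had ratios near 0 or on the negative side. Of the markers of lymphocytes, macrophages and fibroblasts, 8 of 13 had a value at 3 h. The lymphocyte markers ran from −0.10 to 0.03, the macrophage markers from −0.77 to −0.12 and the fibroblast markers from −0.16 to −0.01. At 6 h the lymphocyte markers ran from −0.12 to 0.03 and the macrophage markers from −0.47 to −0.18, with a median of −0.42, and DCN, the only fibroblast marker with a value, had −0.24. The 5 kidney epithelium markers ran from −0.51 to 0.06 at 3 h and from −0.45 to 0.41 at 6 h. These are ratios and not levels, and their part in the values of proteasome genes was not tested.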

How the data were processed

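The authors deposited 1 log ratio per probe and array, read here as log2 values, for 24267 probes; 20503 had a value at 3 h and 20337 at 6 h. For background correction, normalization, spot filter, log base and numerator, the sources used here give nothing. The deposited values had a median of 0.00 over all probes on each array. The SD over probes on the 3 h array equals 1.30-fold if the base is 2 and 2.39-fold if it is 10; base 2 was assumed. Depth has no counterpart on these arrays, and their number, 1 per time, limits the precision of every value.

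Probes were named from the platform annotation, in which 13395 probes carried 1 symbol, 0 carried several and 10872 carried none. Symbols were updated to RefSeq GRCh38.p14: 10822 were current, 2446 were updated through a unique synonym and 127 were kept as listed. PSMG1 and PSMG2 came in by such an update. A gene was the mean of its probes. Counts used a size of 2-fold, and all values were computed with Python 3.11.15, pandas 2.3.3 and numpy 2.4.6. The counting code was run on simulated data with little noise and planted shifts well past the cut. That run checks the code and does not measure the error of counts on these arrays. No test across samples was possible, so lists are described by counts and medians beside those of all named genes. All members are named. Of each related list without PSM symbols, the 3 genes with the largest mean size over both arrays are named. The exceptions are NFE2L1 and VCP, named after seeing their values, and neighbours in divergent pairs. The members and lists were chosen with earlier results of these data known. Promoter sequences are from RefSeq, GRCh38.p14, and no probe or protein sequences were used here. The alternatives were the probe farthest from 0, the median of probes, centring on named genes, genes on both arrays, symbols as listed, symbols with letters after the number, a 1.5-fold size and the mean over members.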

Additional observations from a re-analysis of the deposited data

Results flagged for a closer look

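For 5 members the sign of the deposited log ratio at 6 h was opposite to that at 3 h; with 1 array per time the difference was not tested. The differences of 6 h minus 3 h were −0.45 for PSMA8, −0.28 for PSMB10, −0.11 for PSMD8, −0.08 for PSMD3 and −0.04 for PSME4. In PSMB10 1 of 3 probes, with 0.40 at 3 h and −0.40 at 6 h, carried the change of sign.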

How the results depend on the processing

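No member lay 2-fold from 0 at 3 h, at 6 h or in the difference under any alternative that kept that size; at 1.5-fold 1 member, PSMA3, did at 3 h. The median at 3 h ran from 0.17 (centring on named genes) to 0.19. That at 6 h ran from 0.05 (symbols as listed, without PSMG1 and PSMG2) to 0.11 (probe farthest from 0). The mean over members was 0.15 at 3 h and 0.09 at 6 h. Positive members numbered 26 to 28 at 3 h and 21 to 24 at 6 h. With the probe farthest from 0, PSMB10 had 0.44 at 6 h in place of −0.01. No member had letters after its number and all had both values, so those alternatives changed nothing. Turning the sign of the ratio would exchange positive and negative throughout. No paired analysis was possible because each time has 1 array. The number of arrays, the unknown spot brightness and 1 probe for 36 of 37 genes limit all values.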
